A study of Bos taurus with 10 samples.

Results

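Negative acute phase proteins are plasma proteins whose synthesis in the liver falls during inflammation, and several of them carry hormones, vitamins or fatty acids in blood. The group described here holds 10 genes that encode such proteins and other carrier proteins of plasma, namely ALB, TTR, RBP4, AHSG, FETUB, GC, PON1, SERPINA1, SERPINA6 and A1BG. They were chosen by gene symbol, and every probe set whose single annotated symbol was one of these names was taken. All 10 genes were present, with 26 of the 24016 probe sets tested. ALB had 9 probe sets, AHSG 8 and SERPINA1 2, and each of the other genes had 1.

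The livers came from female Holstein dairy cows in week 5 of lactation, 20 supplemented with conjugated linoleic acid (CLA, linoleic acid isomers with conjugated double bonds) in rumen-protected form and 20 with a control fat protected likewise. Either fat made up 27.3% of an extra concentrate, of which a cow received 630 g dry matter daily; feeding began in week 3 before calving and ended in week 14 of lactation. Cows of both groups ate the same partial mixed ration and further concentrate, were of first or later parity, and had a liver biopsy in this week. RNA of 4 cows was combined in each pool, so the data are 5 CLA pools and 5 control pools, with 1 Affymetrix bovine array per pool. Values are log2 expression normalized by the authors, and a value belongs to a pool rather than to a cow. In whole tissue, fewer hepatocytes and less RNA per hepatocyte cannot be told apart.

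In liver, hepatocytes secrete these proteins under the control of liver-enriched transcription factors. During an acute phase response, cytokines such as interleukin 6 and interleukin 1 shift hepatocyte synthesis towards positive acute phase proteins, and in cattle haptoglobin and serum amyloid A respond most. Albumin, transthyretin, retinol-binding protein and paraoxonase are followed in blood of dairy cows around calving as negative acute phase proteins. SERPINA1 is an exception by role, since alpha-1-antitrypsin is a positive acute phase protein in humans.

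The array medians lay between 5.79 and 5.82 in the CLA pools and between 5.83 and 5.85 in the control pools (exact two-sided permutation p = 0.0079, the smallest that 252 groupings allow). The spread of values on an array, the SD over probe sets, was 2.40 ± 0.018 in the CLA pools and 2.37 ± 0.017 in the control pools (SD, n = 5 each, exact two-sided permutation p = 0.024). The highest value on any array lay between 14.93 and 14.98. Hepatocyte markers outside the group, such as APOB and CPS1, averaged 12.17 to 12.34 in the CLA pools and 12.18 to 12.28 in the control pools over 13 genes. Averages of the marker lists of other cell types overlapped between the groups: Kupffer cells at 9.18 to 9.45 in the CLA pools and 9.12 to 9.70 in the control pools, T and NK cells at 5.95 to 6.17 in the CLA pools and 6.04 to 6.42 in the control pools, and endothelial cells 7.09 to 7.33 in the CLA pools against 7.14 to 7.50 in the control pools. Gene by gene, 12 of 14 T and NK cell genes had a negative difference, led by ZAP70 (-0.436 ± 0.109 SE, adjusted p = 0.332 in limma), as did 7 of 8 Kupffer cell genes, with 0 positive. The same held for 6 of 7 erythroid genes, led by the dim HBA (-0.240 ± 0.076 SE, adjusted p = 0.418), while HBB differed by -0.058 ± 0.203 SE (adjusted p = 0.96). Over all genes, 46% had a positive difference. The part of these cell types in the carrier gene values was not tested.

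None of the 10 genes passed the adjusted threshold between CLA and control pools, and the lowest unadjusted p-values among their brightest probe sets were those of PON1 and GC. In limma with Benjamini-Hochberg adjustment over all 24016 probe sets, 0 of the 26 member probe sets had an adjusted p under 0.05, the share called over all probe sets being 0%, and the lowest adjusted p among them was 0.376. At an unadjusted p under 0.05, 3 of 26 counted, against 8.89% of all probe sets, and 0 of these was the brightest probe set of its gene. All 3 were higher with CLA, against 4.01% of all probe sets higher and 4.88% lower. Of the 26, 16 had a difference above 0, against 43.5% of all probe sets, and in 0 of 26 did the groups lie apart without overlap, against 1.97%. The eBayes fit with trend and robust options counted 5 of 26 at that level and 2112 of all 24016. The fit with array weights counted 5 of 26 and 2176 of all, and the unmoderated test 6 of 26 and 2202 of all. These 3 fits called 0 probe sets after adjustment. With 1 probe set per gene, the brightest, 7 genes had a positive and 3 a negative difference. The median of these differences was 0.022, against -0.010 over all genes measured, where 46% of genes had a positive difference. After quantile normalization 4 genes had a positive difference (median -0.017), and after cyclic loess normalization 3 (median -0.015). After subtraction of array medians, which differ between the groups, 9 genes had a positive difference (median 0.053).

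**Figure D1:**
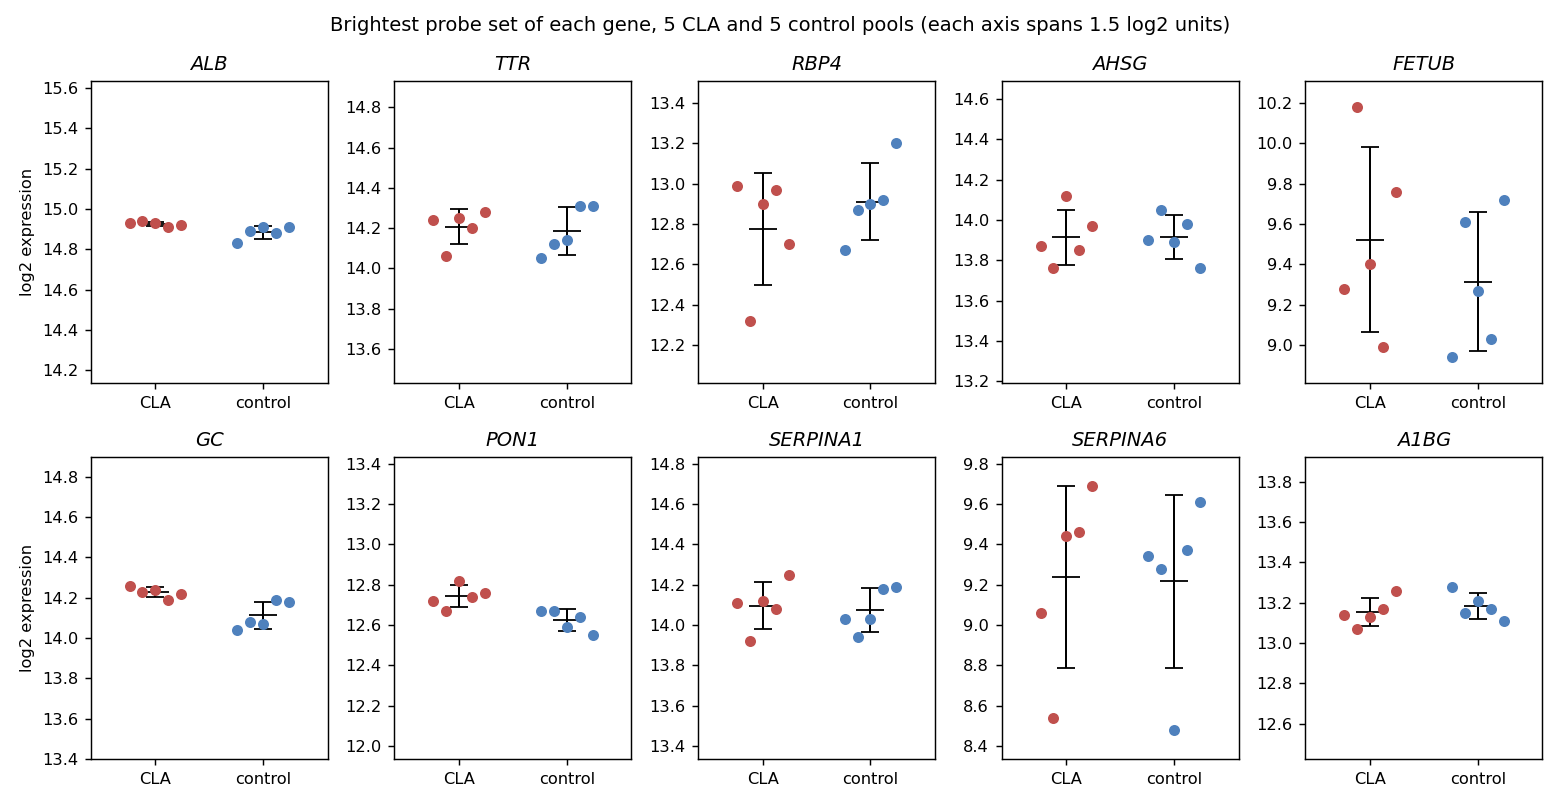
Log2 expression of the brightest probe set of each gene in 5 CLA pools (left, red) and 5 control pools (right, blue), ordered by pool number, with the mean and SD as black bars. Every vertical axis spans the same 1.5 log2 units, so genes such as ALB, A1BG, GC, TTR and PON1 look flat. FETUB and SERPINA6 span over 1 log2 unit.

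Albumin and the carriers of hormones and vitamins come first by role. Albumin, from ALB, is the most abundant plasma protein and carries fatty acids, bilirubin and many hormones. The brightest ALB probe set read 14.93, 14.94, 14.93, 14.91 and 14.92 in CLA pools 1 to 5, against 14.83, 14.89, 14.91, 14.88 and 14.91 in control pools 1 to 5. Every CLA pool lay at or above the highest control pool, and the groups met at 14.91. The difference was 0.042 ± 0.056 SE (95% interval -0.079 to 0.163, limma adjusted p = 0.872), at a level close to the top of the scale on every array. In CLA pools 1 and 2 the ALB value equalled the highest value on the array, 14.93 and 14.94. The SE of limma borrows from other probe sets, and the unmoderated SE of ALB was 0.016 (adjusted p = 0.491). After cyclic loess normalization the ALB difference was -0.00053. The second bright ALB probe set, also above 14, differed by 0.036 ± 0.056 SE.

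The GC gene encodes vitamin D-binding protein and belongs to the same protein family as albumin, and 4 protein-coding genes separate them on 1 chromosome in the RefSeq gene table. GC read 14.26, 14.23, 14.24, 14.19 and 14.22 in CLA pools 1 to 5, against 14.04, 14.08, 14.07, 14.19 and 14.18 in control pools 1 to 5. As for ALB, no CLA pool lay below a control pool, and CLA pool 4 and control pool 4 shared the value 14.19. The difference was 0.116 ± 0.060 SE, or 1.08-fold (95% interval 0.985-fold to 1.19-fold), with an unadjusted p = 0.078 and an adjusted p = 0.603 in limma. Its unadjusted p was 0.030 with trend and robust options, 0.046 with array weights and 0.0075 without moderation, where the adjusted p was 0.402. The difference was 0.053 after quantile normalization, 0.073 after cyclic loess normalization and 0.147 after subtraction of array medians (unadjusted p = 0.037, adjusted p = 0.544).

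Transthyretin, from TTR, binds thyroxine and forms a complex with retinol-binding protein. TTR read 14.24, 14.06, 14.25, 14.20 and 14.28 in CLA pools 1 to 5, against 14.05, 14.12, 14.14, 14.31 and 14.31 in control pools 1 to 5. The groups overlapped throughout, and the highest values belonged to control pools 4 and 5. The difference was 0.020 ± 0.076 SE (95% interval -0.145 to 0.185, adjusted p = 0.964 in limma).

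RBP4, the plasma carrier of retinol, read 12.99, 12.32, 12.90, 12.97 and 12.70 in CLA pools 1 to 5, against 12.67, 12.87, 12.90, 12.92 and 13.20 in control pools 1 to 5. CLA pool 2 lay lowest of all pools and control pool 5 highest. The difference was -0.136 ± 0.134 SE (adjusted p = 0.810 in limma), and without CLA pool 2 it was -0.022. With the spread of the array as a covariate it was 0.127 ± 0.155 SE. CLA pool 2 had the widest array (SD 2.43) and control pool 5 the narrowest (SD 2.34), and over the 10 pools RBP4 had r = -0.65 with that spread, whose part in the result was not tested.

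Corticosteroid-binding globulin, from SERPINA6, carries cortisol. SERPINA6 read 9.06, 8.54, 9.44, 9.46 and 9.69 in CLA pools 1 to 5, against 9.34, 9.28, 8.48, 9.37 and 9.61 in control pools 1 to 5. Each group held a single low pool, CLA pool 2 and control pool 3, and the other 8 pools lay between 9.06 and 9.69. The difference was 0.022 ± 0.232 SE, and its 95% interval of -0.484 to 0.528 covers changes of up to 1.44-fold in the upward direction. With the spread of the array as a covariate the difference was 0.619 ± 0.213 SE (unadjusted p = 0.014, adjusted p = 0.830 in limma), outside that interval. SERPINA6 had r = -0.55 with the spread over the 10 pools, and the part of the spread in the result was not tested. NR3C1 encodes the receptor for the hormone that SERPINA6 carries. The brighter of its 2 probe sets read 8.52 to 8.93 in the CLA pools and 7.69 to 8.40 in the control pools. The groups did not overlap (adjusted p = 0.272 in limma), as in 1.97% of all probe sets. A relation of NR3C1 to SERPINA6 was not tested.

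The second group comprises the fetuins and the serpin SERPINA1. Fetuin A, from AHSG, binds calcium phosphate in plasma and inhibits the insulin receptor, and fetuin B, from FETUB, is a protease inhibitor. Both belong to the cystatin superfamily, and no protein-coding gene lies between them in the RefSeq gene table. FETUB read 9.28, 10.18, 9.40, 8.99 and 9.76 in CLA pools 1 to 5, against 8.94, 9.61, 9.27, 9.03 and 9.72 in control pools 1 to 5. The groups overlapped over most of their range, and CLA pool 2 was highest. The difference was 0.208 ± 0.215 SE (95% interval -0.261 to 0.677, adjusted p = 0.821 in limma), and it was 0.044 without CLA pool 2.

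AHSG was read by 8 probe sets that did not give the same picture. The brightest read 13.87, 13.76, 14.12, 13.85 and 13.97 in CLA pools 1 to 5, against 13.90, 14.05, 13.89, 13.98 and 13.76 in control pools 1 to 5, a difference of -0.0020 ± 0.084 SE. The bright set of mean 13.71 differed by 0.00 ± 0.082 SE and that of mean 13.24 by 0.086 ± 0.105 SE. Both followed the brightest over the pools with group means removed (r = 0.92 and r = 0.90, n = 10).

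The remaining bright AHSG probe set, of mean 13.58, is the one annotated with the RefSeq transcript of the gene. It read 13.74, 13.52, 13.90, 13.63 and 13.81 in CLA pools 1 to 5, against 13.35, 13.48, 13.71, 13.22 and 13.44 in control pools 1 to 5. Control pool 3 lay among the CLA values and the other control pools lay below them all. The difference was 0.280 ± 0.101 SE (unadjusted p = 0.017, adjusted p = 0.462 in limma). Its value minus that of the brightest AHSG probe set was -0.194 ± 0.047 in the CLA pools and -0.476 ± 0.227 in the control pools (SD, n = 5 each, exact two-sided permutation p = 0.032), a comparison chosen after its values were seen. Of the 4 AHSG probe sets below 12, that of mean 5.61 averaged 5.84 ± 0.23 in the CLA pools and 5.38 ± 0.21 in the control pools (SD, n = 5 each), a difference of 0.46 ± 0.13 SE (unadjusted p = 0.0032, adjusted p = 0.376). The other 3 had differences of -0.158, 0.188 and 0.004. The name of the set of mean 13.58, and of the other bright sets but the brightest, carries the manufacturer's suffix for probes that can match other sequences, whose part in the result was not tested.

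Alpha-1-antitrypsin, from SERPINA1, inhibits neutrophil elastase. Its brighter probe set read 14.11, 13.92, 14.12, 14.08 and 14.25 in CLA pools 1 to 5, against 14.03, 13.94, 14.03, 14.18 and 14.19 in control pools 1 to 5, and the groups overlapped. The difference was 0.022 ± 0.079 SE there and -0.034 ± 0.109 SE at the second set, which followed the first (r = 0.91 over the 10 pools, group means removed).

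The third group holds PON1 and A1BG. Paraoxonase 1, from PON1, is an esterase carried on high-density lipoprotein that protects lipids from oxidation. PON1 read 12.72, 12.67, 12.82, 12.74 and 12.76 in CLA pools 1 to 5, against 12.67, 12.67, 12.59, 12.64 and 12.55 in control pools 1 to 5. The CLA pools lay at or above every control pool, and the groups met at 12.67. The difference was 0.118 ± 0.061 SE, or 1.09-fold (95% interval 0.990-fold to 1.19-fold, unadjusted p = 0.076, adjusted p = 0.600 in limma). Without moderation the unadjusted p was 0.0085 and the adjusted p 0.402. The difference was 0.101 after quantile normalization, 0.076 after cyclic loess normalization and 0.149 after subtraction of array medians (unadjusted p = 0.030, adjusted p = 0.519).

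A1BG encodes alpha-1-B glycoprotein, a plasma protein of the immunoglobulin superfamily. It read 13.14, 13.07, 13.13, 13.17 and 13.26 in CLA pools 1 to 5, against 13.28, 13.15, 13.21, 13.17 and 13.11 in control pools 1 to 5. The groups overlapped, and the difference was -0.030 ± 0.064 SE (95% interval -0.170 to 0.110).

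ALB, GC and PON1 thus shared a layout in which all CLA pools lay at or above the highest control pool, 3 of 10 genes. Over all 9155 genes with a named probe set, 1.76% had that layout, and 3.75% of the 373 probe sets with a mean above 12 did. These bright probe sets had a median difference of 0.018 and 59% of them a positive one, while the median over all probe sets was -0.018. After quantile normalization ALB alone kept the layout, and after cyclic loess normalization 0 of 10 genes did, where the median of the bright probe sets was -0.025. After subtraction of array medians all 3 kept it, as did 2.61% of all genes and 6.43% of the bright probe sets, whose median was 0.049. The layout was noticed after the values were seen, so it is a description. The number of genes with this layout thus lay between 0 and 3, depending on the scaling of the arrays. With the spread of the array, higher in the CLA pools, r was 0.46 for ALB, 0.39 for GC and 0.58 for PON1. With the spread as a covariate their differences were 0.044, 0.144 and 0.110. With the log2 signal of the 3-prime over the 5-prime actin control probe set, r was -0.67 for ALB, -0.53 for GC and -0.16 for PON1. The part of either measure in the layout was not tested.

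**Figure D2:**
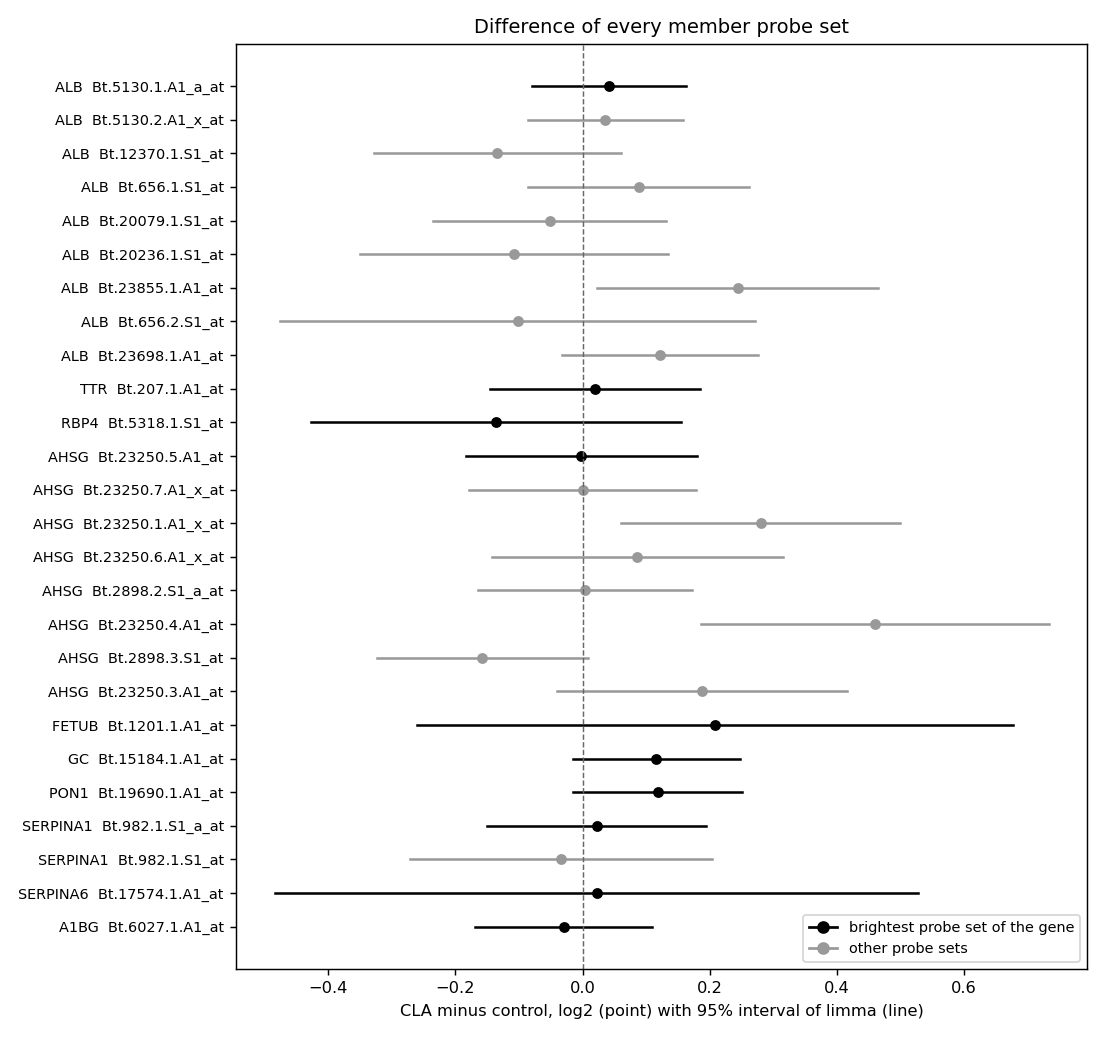
CLA minus control difference on the log2 scale for all 26 probe sets, with the 95% interval from limma as a line; black marks the brightest probe set of a gene and grey the others. All black intervals include 0, and the 3 intervals that exclude it are those of the AHSG probe sets of mean 13.58 and 5.61 and the ALB probe set of mean 4.85.

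The 9 ALB probe sets spanned a wide range of signal, with means over the 10 pools of 14.9 and 14.8 for the bright pair and between 3.28 and 9.88 for the other 7. Of these 7, the set of mean 4.85 differed by 0.244 ± 0.102 SE (unadjusted p = 0.033, adjusted p = 0.530 in limma), from a mean of 4.98 ± 0.19 in the CLA pools and 4.73 ± 0.14 in the control pools (SD, n = 5 each). The others had differences between -0.134 and 0.122. With group means removed, these 7 ALB probe sets had r between -0.29 and 0.53 with the brightest over the 10 pools. The second bright set had r = 0.34. The brightest spanned only 0.11 over the pools, and no other ALB probe set tracked it closely. Of the 26 member probe sets 3, 2 of ALB and 1 of AHSG, were among the dimmest 30% of all probe sets.

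The relation to the acute phase was read from haptoglobin (HP), which binds free haemoglobin and was represented by 1 probe set. HP read 14.26, 13.64, 10.65, 13.96 and 11.68 in CLA pools 1 to 5, against 13.45, 13.98, 13.57, 8.90 and 13.60 in control pools 1 to 5. The 7 highest pools lay between 13.45 and 14.26, and control pool 4, CLA pool 3 and CLA pool 5 lay lower, at intervals of 1.75, 1.03 and 1.77 up to the 7. The whole range was 5.36, or 41.1-fold, whereas the brightest probe sets of the carrier genes spanned between 0.11 (ALB) and 1.24 (FETUB). No difference in HP between the groups exceeded the spread between pools (exact two-sided permutation p = 0.849). The difference was 0.138 ± 0.966 SE in limma, with an unmoderated SE of 1.19, and without control pool 4 it was -0.812. A pool mixes the RNA of 4 cows, so how many cows stand behind a pool's HP value cannot be told.

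No carrier gene was related to HP beyond the spread between pools. Limma's regression on HP, adjusted over the other 24015 probe sets, gave the 26 probe sets adjusted p from 0.936 to 1.00, and 0 of them had an unadjusted p under 0.05, against 5.53% of all probe sets (2.5% with negative r). Limma's SE borrows from other probe sets, so for bright genes of small spread its p can stay high where r is large. APOA2, described below, had r = -0.77 with a permutation p of 0.020 and an unadjusted limma p of 0.396. By permutation of Pearson's r, 0 of the 26 member probe sets had p under 0.05, the lowest being 0.096. That share was not computed over all probe sets. Limma's adjusted threshold was passed by 0% of all probe sets, with or without the group as a term. Of the 26 member probe sets 21 had a negative r, against 54.6% of all. Of the 10 genes 8 had a negative r, against 54.8% of all genes, and the median r was -0.26 against -0.044. By rank, 6 of 10 were negative. With the group as a term in the regression 8 of 10 were again negative, and the lowest adjusted p among the 26 probe sets was 0.884.

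AHSG, TTR and SERPINA1 had the most negative values of Pearson's r. For AHSG r was -0.55 (permutation p = 0.10) and Spearman's rho -0.49 (permutation p = 0.16), with an adjusted p = 0.944 in limma. The other bright AHSG probe sets differed in sign: r was -0.45 (mean 13.71), -0.40 (mean 13.24) and 0.12 (mean 13.58, permutation p = 0.74). For TTR r was -0.53 (permutation p = 0.11) and rho -0.40 (permutation p = 0.25, limma's adjusted p = 0.951). For SERPINA1 r was -0.53 (permutation p = 0.11) and rho -0.49 (permutation p = 0.16, limma's adjusted p = 0.947). In the 3 pools of lowest HP, TTR read 14.31, 14.25 and 14.28, and its other 7 pools lay between 14.05 and 14.31. The slope of TTR was -0.030 ± 0.022 SE per log2 unit of HP (95% interval -0.076 to 0.017).

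SERPINA6 had r = -0.33, GC -0.27, PON1 -0.24, A1BG -0.11 and RBP4 -0.024, while ALB had 0.078 and FETUB 0.18, with permutation p between 0.36 and 0.95 for these 7. The sign of ALB and FETUB was not stable: ALB had r = -0.63 when its 9 probe sets were averaged, and without control pool 4 ALB had -0.21 and FETUB -0.13. Without control pool 4 and CLA pool 3, the pools farthest from the median HP, r was -0.25 for AHSG, -0.29 for TTR, -0.58 for SERPINA1 and -0.29 for FETUB. Within the 7 pools with HP above 13, 8 of the 10 genes had a positive r, among them AHSG (0.31), TTR (0.39) and PON1 (0.64). AHSG, TTR and PON1 thus had a negative r over all pools and without the 2 farthest (PON1 -0.28), but not within these 7. HP spanned only 13.45 to 14.26 there, and the part of the 3 pools of low HP in these values was not tested.

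**Figure D3:**
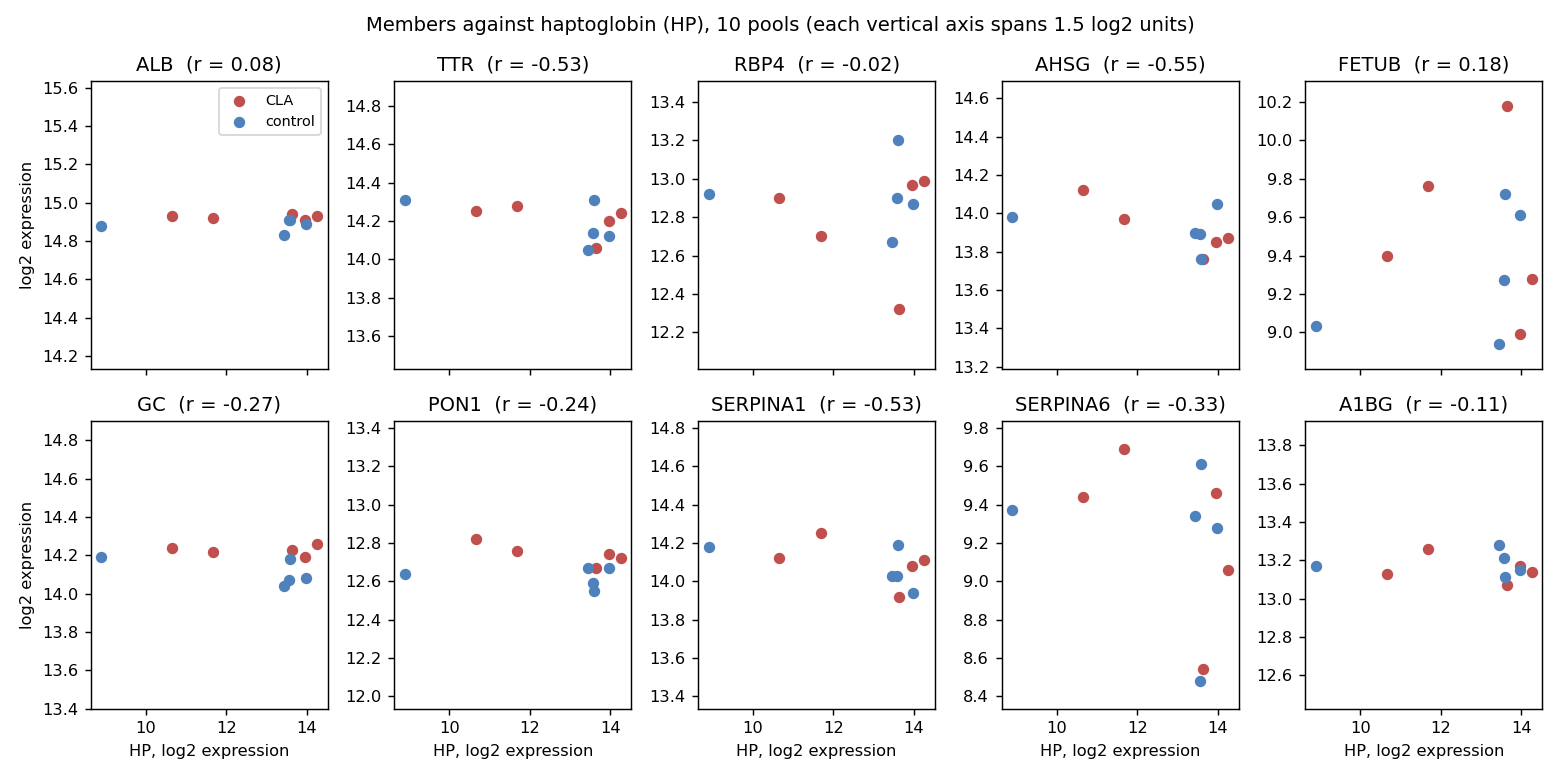
Log2 expression of each gene (brightest probe set, vertical, 1.5 log2 units per panel) against HP (horizontal) in 5 CLA pools (red) and 5 control pools (blue), with Pearson's r in each title. The single pool near 8.90 on the horizontal axis is control pool 4, and r lies between -0.55 and 0.18.

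Single pools moved the HP relation of the whole array. Without CLA pool 3, 154 probe sets (0.641%) passed limma's adjusted threshold, 151 of them with positive r, and 0 of the 26 member probe sets did, the lowest adjusted p among them being 0.163. In that fit control pool 4 had the lowest HP, 8.90, and the next pool 11.68. Without control pool 4, 4 member probe sets had an unadjusted p under 0.05 (0 after adjustment), all with negative r, against 2.79% of all probe sets. They were the AHSG sets of mean 13.24 (r = -0.85), 5.61 (-0.69) and 3.28 (-0.69) and the ALB set of mean 4.85 (-0.71).

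Among positive acute phase genes, 18 of 24 measured besides HP had a positive r with HP (median 0.35), while 54.8% of all genes had a negative r. Of the 18, 7 had an unadjusted p under 0.05 in limma, with 0 after adjustment. Over all probe sets 5.53% had such a p, 2.5% with negative r. SAA3, a serum amyloid A, had r = 0.91 (permutation p = 0.00074) and rho 0.78 (permutation p = 0.010), with an adjusted p = 0.169 in limma. It read 9.98, 9.64, 8.28, 9.30 and 8.29 in CLA pools 1 to 5, against 9.94, 10.02, 9.54, 8.09 and 9.44 in control pools 1 to 5, so the same 3 pools were lowest. CP, the copper carrier ceruloplasmin, had r = 0.84 (permutation p = 0.0017) and rho 0.80 (permutation p = 0.0078), with an adjusted p = 0.71 in limma. Without the 2 pools farthest from the median HP, r was 0.87 for SAA3 and 0.70 for CP, while LBP, which binds lipopolysaccharide, had 0.022 against 0.72 over all pools and the fibrinogen chain gene FGB 0.049 against 0.59. Within the 7 pools with HP above 13, r was 0.27 for SAA3, 0.81 for CP, -0.023 for LBP and 0.44 for FGB. LBP and FGB are given here after their values were seen. VNN1, a pantetheinase, had r = -0.65 (unadjusted p = 0.017, adjusted p = 0.801 in limma), the 1 such p with negative r in this list. Between CLA and control, 11 of the 24 had a positive difference and 13 a negative one (median -0.0070), against 46% positive over all genes. In limma 1 had an unadjusted p under 0.05, against 8.89% of all probe sets, and 0 passed adjustment. It was APCS, serum amyloid P (-0.310 ± 0.126 SE, adjusted p = 0.513).

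**Figure D4:**
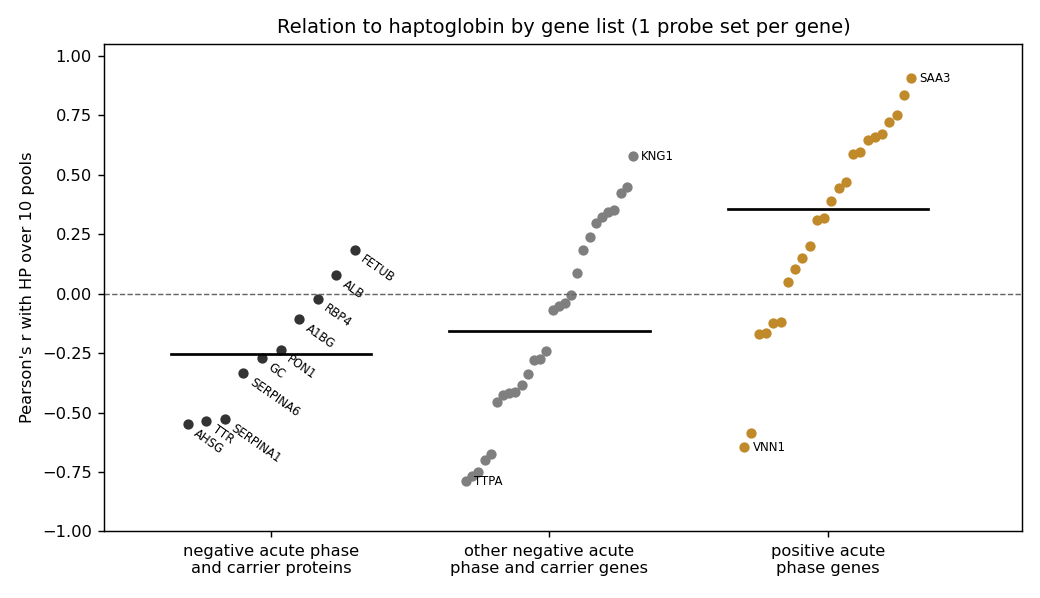
Pearson's r with HP over the 10 pools for each measured gene of 3 lists, 1 probe set per gene and HP left out, sorted within a list, with the list median as a black line. The medians are -0.26 for the 10 genes described here, -0.16 for 28 other negative acute phase and carrier genes and 0.35 for 24 positive acute phase genes.

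A wider list of negative acute phase and carrier genes, such as transferrin, apolipoproteins and further serpins, had 28 of 30 genes measured. Of these 19 had a positive and 9 a negative difference between CLA and control (median 0.035), against 46% of all genes with a positive one. The adjusted threshold was passed by 0, and 1 gene had an unadjusted p under 0.05 in limma, against 8.89% of all probe sets. That gene was AFM, afamin, a vitamin E-binding relative of albumin, which read 10.61 to 10.86 in the CLA pools and 10.14 to 10.72 in the control pools (difference 0.278 ± 0.121 SE, adjusted p = 0.546 in limma). KNG1, kininogen, followed with 0.184 ± 0.092 SE (adjusted p = 0.584). With HP, 18 of the 28 had a negative r (median -0.16), against 54.8% of all genes. Of the 18, 3 had an unadjusted p under 0.05 in limma, TTPA, IGFALS and SERPIND1, with 0 after adjustment. Over all probe sets 2.5% had such a p with negative r. IGFALS, the acid-labile subunit that carries insulin-like growth factors, had r = -0.75, -0.72 without the 2 pools farthest from the median HP and -0.097 within the 7 pools with HP above 13. TTPA, the tocopherol transfer protein, was dim at 3.89 to 4.89 over the pools in the brighter of its 2 probe sets. It had r = -0.79 (permutation p = 0.016) but rho -0.40 (permutation p = 0.25), and leaving out control pool 4 and CLA pool 3 gave r = 0.14. APOA2, an apolipoprotein of high-density lipoprotein, had r = -0.77 (permutation p = 0.020), rho -0.42 (permutation p = 0.22) and -0.28 without those pools. Control pool 4 was highest for both, at 4.89 for TTPA and 14.60 for APOA2. Limma's adjusted p was 0.688 for TTPA and 0.976 for APOA2.

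Among 10 measured enzymes, receptors and partners that handle the cargo of these carriers, 5 had a positive and 5 a negative difference (median -0.0030). Over all genes 46% had a positive difference. The adjusted threshold was passed by 0, and 3 had an unadjusted p under 0.05 in limma, against 8.89% of all probe sets. DIO1, a deiodinase that converts thyroxine, read 10.88 to 11.39 in the CLA pools and 10.70 to 11.05 in the control pools (difference 0.276 ± 0.103 SE, adjusted p = 0.475 in limma). CUBN, an uptake receptor for albumin and for vitamin D-binding protein in kidney, was dim at 4.11 to 4.47 in the CLA pools and 4.16 to 4.89 in the control pools (difference -0.378 ± 0.127 SE, adjusted p = 0.432). LRAT, which esterifies retinol, differed by 0.216 ± 0.087 SE (adjusted p = 0.511). Of 10 measured liver transcription factors 8 had a positive r with HP (median 0.27), while 54.8% of all genes had a negative r. They were led by HNF4A (r = 0.60, permutation p = 0.087, rho 0.30, permutation p = 0.41, -0.046 without the 2 pools farthest from the median HP).

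Among themselves, the carrier genes did not move as 1 block over the pools. Of 45 pairs, with group means removed and as a description over 10 pools, 28 had a positive and 17 a negative r, with a median of 0.17, and 4 exceeded 0.7. TTR went with SERPINA1 (r = 0.89, rho 0.94), with GC (r = 0.77, rho 0.71) and with its binding partner RBP4 (r = 0.74, rho 0.65). The pair of TTR and RBP4 stood at r = 0.31 without the 2 pools farthest from the median of TTR, while TTR and SERPINA1 stayed at 0.92. AHSG went with PON1 (r = 0.90, rho 0.89). The neighbouring fetuin genes AHSG and FETUB had r = -0.26, and the nearby serpin genes SERPINA1 and SERPINA6, with 1 protein-coding gene between them, had 0.68. ALB and A1BG had the most negative pair value, -0.67. The ALB probe set used here spanned only 0.11 over the pools, and the second bright ALB set had r = 0.34 with it. All values of a pool come from 1 array, and r with the spread of the array lay between -0.65 (RBP4) and 0.58 (PON1). ALB and A1BG had r = -0.67 and r = 0.66 with the log2 signal of the 3-prime over the 5-prime actin control probe set, a sign of RNA integrity that averaged 1.66 ± 0.48 in the CLA pools and 2.05 ± 0.50 in the control pools (SD, n = 5 each, exact two-sided permutation p = 0.246). Its part in the pair values was not tested.

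**Figure D5:**
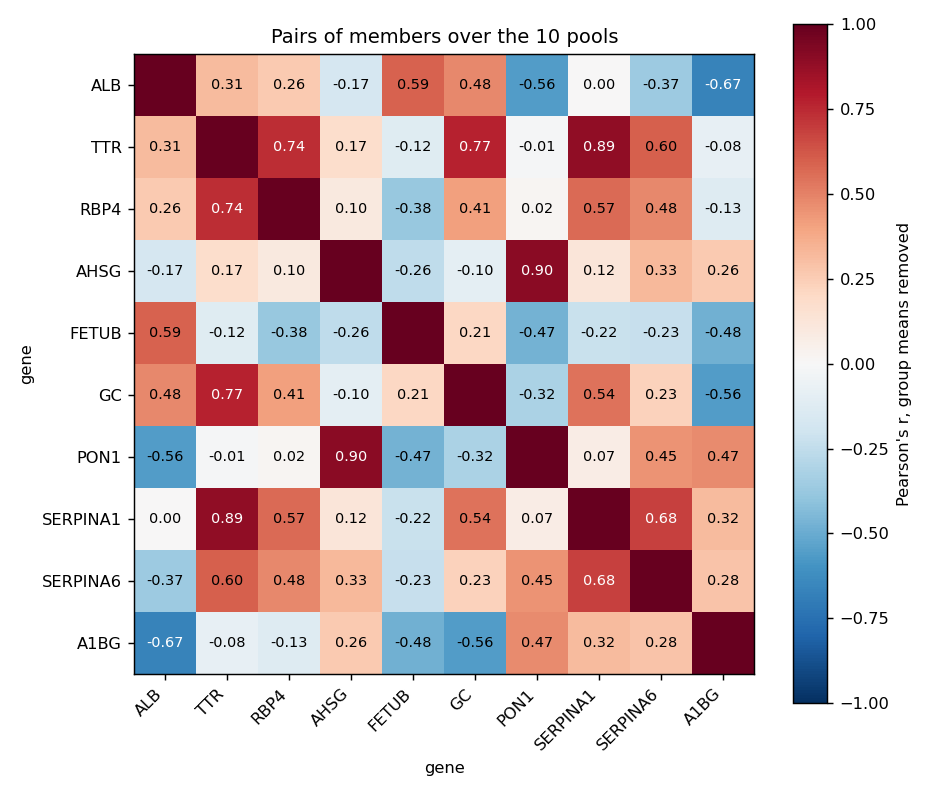
Pearson's r between the brightest probe sets of the genes over 10 pools, with the mean of each group removed; red is positive and blue negative, and the number stands in each cell. TTR, SERPINA1, GC, RBP4 and SERPINA6 form 10 positive pairs, and AHSG and PON1 form the pair of highest r, 0.90.

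Pool by pool, CLA pool 2 was alone lowest for RBP4, SERPINA1 and A1BG, and shared the lowest AHSG value with control pool 5. The same pool was highest for ALB and FETUB. Control pool 1 was lowest for ALB, TTR, FETUB and GC and highest for A1BG. CLA pool 4 and control pool 2 were at neither end for any of the 10 genes. Across 9155 named genes, the brightest probe set most like each gene over the 10 pools, with group means removed, was TMEM132A for SERPINA1 (r = 0.97), PLXDC1 for RBP4 (0.97), FADS2, a fatty acid desaturase, for TTR (0.95) and MARCHF2 for GC (0.95). It was SERINC2 for ALB and A1BG's was STARD13 (0.92 each), SERPINA6's was FMNL3 (0.92), FETUB's was BATF (0.91), AHSG's was ATF7IP (0.90) and PON1's was PPM1A (0.90). With so many genes and 10 pools, values of this size are found for every one of the 10.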

How the data were processed

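Log2 expression, normalized by the authors, was deposited for every probe set in each pool. Per the submitters' processing notes, Affymetrix Expression Console 1.1 and RMA were used, while order, settings and genome build are not given in the sources used here. RMA makes the arrays alike in distribution, and ALB lies near the top of the scale; whether differences are compressed there was not tested. Values were used as deposited. The 112 manufacturer control probe sets were left out, and 24016 were tested. Symbols came from the platform annotation: 13292 probe sets had 1, 86 several and 10638 none. RefSeq's gene table (assembly ARS-UCD2.0) held the gene identifiers of 13263 and was used for names and neighbouring genes only. No sequence of these genes was used here.

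CLA minus control was estimated in limma 3.58.1 (R 4.3.3; lmFit, then eBayes) from the 10 arrays with group as the single term, and the relation to HP by limma regression, both with Benjamini-Hochberg adjustment over all probe sets and tested on simulated data. Permutation p-values of r and rho used 100000 resamples, two-sided. Per gene, the brightest probe set over all arrays was taken. No detection calls were used; precision is set by there being 10 arrays. Members, lists and tests were chosen with earlier results of these data known. The named genes are all members, HP and the gene most like each member. From the lists, the 2 genes of smallest p and the 2 of largest absolute r with HP were picked by rule. Not all of these picks are named. Other genes are examples chosen after their values were seen. The pools are separate cow groups per the labels' design. Pools of the same number were not alike (r of their deviations from -0.086 to 0.092). Alternatives were each pool left out, other normalizations, a filter on the dimmest 30%, other variance models, array weights, array spread, pool number as a block and mean of a gene's probe sets.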

Additional observations from a re-analysis of the deposited data

Results flagged for a closer look

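Haptoglobin in control pool 4 lay far from the other control pools, at 8.90 against 13.45 for the nearest, a gap of 0.896 of the group's range. It was the 1 value so marked among 54 sets of 5 pools (26 member probe sets and HP, in both groups), a rule by which chance marks about 1 set in 20. SAA3 was lowest in the same pool. Without it, r with HP was -0.63 for AHSG, -0.38 for TTR, -0.47 for SERPINA1 and -0.61 for PON1.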

How the results depend on the processing

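The brightest probe set of each of the 10 genes stayed above an adjusted p of 0.05 for CLA against control and in the relation to HP under the alternatives run. Leaving out 1 pool at a time gave 5 to 8 genes with a positive CLA minus control difference, a median from -0.00725 to 0.051, 2 to 4 member probe sets at an unadjusted p under 0.05, and 1575 to 2297 of all probe sets. Differences then ran from -0.0535 to 0.0365 (AHSG), 0.0435 to 0.341 (FETUB), -0.1965 to -0.022 (RBP4), -0.162 to 0.1965 (SERPINA6), -0.0165 to 0.066 (SERPINA1), -0.014 to 0.0565 (TTR), 0.0285 to 0.0485 (ALB), 0.098 to 0.1355 (GC), 0.0985 to 0.136 (PON1), -0.0565 to -0.006 (A1BG) and -0.812 to 0.685 (HP). For HP it gave 6 to 9 genes with negative r, 0 to 4 member probe sets and 669 to 2326 of all probe sets at an unadjusted p under 0.05, 0 to 154 called, and r from -0.213 to 0.335 (ALB), -0.134 to 0.301 (FETUB), -0.607 to 0.0181 (PON1) and -0.133 to 0.179 (RBP4). Quantile normalization gave 4 genes with a positive difference, a median of -0.0166, TTR -0.0297, SERPINA1 -0.0212 and SERPINA6 -0.012; cyclic loess gave 3, -0.0148, TTR -0.0232, SERPINA1 -0.0212, SERPINA6 -0.00831 and ALB -0.000526. Subtracting array medians gave 5 member probe sets at an unadjusted p under 0.05 (2101 of all 24016), 9 genes with a positive difference, AHSG 0.029 and A1BG 0.001. Trend and robust options gave 5 such probe sets (2112 of all), the unmoderated test 6 (2202) and array weights 5 (2176), with HP -0.0446 and AHSG 0.0140 under weights. The array spread as a covariate gave 1380 of all probe sets at an unadjusted p under 0.05, a member median of 0.136, RBP4 0.127, SERPINA6 0.619, SERPINA1 0.170, TTR 0.145 and r with HP of 0.00817 for RBP4. Averaging each gene over its probe sets gave AHSG 0.107, SERPINA1 -0.006 and r with HP of -0.628 for ALB. Pool numbers do not pair the samples; with the pool number as a replicate block, 881 probe sets had an unadjusted p under 0.05 for HP, and r was 0.329 for RBP4 and -0.137 for FETUB. Without the 2 pools farthest from the median HP, 2 member probe sets had an unadjusted p under 0.05 (1023 of all 24015), and r was -0.0198 (ALB), 0.287 (RBP4) and -0.294 (FETUB). In 2 settings chosen after seeing the data, the 7 pools with HP above 13 gave 2 genes with negative r and r of 0.391 (TTR), 0.312 (RBP4), 0.311 (AHSG), -0.100 (FETUB), 0.549 (GC), 0.637 (PON1), 0.0970 (SERPINA1) and 0.154 (SERPINA6), and leaving out the 2 arrays least like the rest, CLA pool 2 and control pool 4, gave 1 probe set called for CLA, AHSG 0.0525, FETUB -0.0275 and HP -1.01. The cause of these changes was not tested. Other HP probe sets were not run, since HP has 1. Bright genes lie near the top of the scale, and 10 pools limit what can be seen.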
